A study of Homo sapiens with 18 samples.

Results

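The genes of the EGFR family and its ligands were followed in HT29 colorectal carcinoma cells and in HTOXAR3, a subline resistant to oxaliplatin (OXA). The members were chosen by name: EGFR, ERBB2 and ERBB3 among the receptors and AREG, EREG, TGFA, HBEGF, BTC and EPGN among the ligands, as every spot on the array that carries one of these names and is not a control. The choice was made with earlier results of these data known, so counts of members set beside shares of all names are descriptive. The members account for 9 of 36204 gene names, 16 of 50599 probes and 25 of 58717 spots.

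HTOXAR3 cells were selected from HT29 in prolonged culture under rising concentrations of OXA. Expression was measured on 18 one-colour Agilent arrays, 3 for each of 6 groups. In HT29 the groups were untreated cells, cells given 10 µM OXA for 24 h, and cells given 10 µM OXA with 10 µM Curcumin for 24 h. In HTOXAR3 they were untreated cells, cells given 30 µM OXA for 24 h, and cells given 30 µM OXA with 10 µM Curcumin for 24 h. The OXA dose therefore differs between the lines wherever treated lines or their responses are compared. None of the 18 arrays was of cells given Curcumin alone.

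Values are log2 intensities after background correction and normalization between arrays. The adjusted p comes from limma over all gene names, with the Benjamini-Yekutieli (BY) adjustment. A gene passed the test if its fold change exceeded 1.2 and its adjusted p was under 0.05, and "rose" and "fell" are used only of such genes. Errors are standard errors with 3 arrays per group. The p-values measure the spread between these samples, which the paper calls biological replicates, and the number of arrays limits the precision. Comparisons that share the untreated or the OXA arrays of a line share them as controls and are not independent of each other.

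The share of spots well above background lay between 52.4% and 63.6% over the arrays. Of 11 markers of colon epithelium, 8 were above background on all 18 arrays, EPCAM, KRT8, KRT18, KRT20, VIL1, CDH1, LGALS4 and CDX1, whereas CDX2 was so on 10 arrays, GPA33 on 9 and CDH17 on 5. None of 6 fibroblast markers was above background on all arrays, and COL1A2 and COL3A1 were above it on 0 of 18. Of 4 endothelial markers, VWF and CDH5 were above background on all arrays, as were the immune markers PTPRC, CD68 and CD14. Group means in untreated HT29 and HTOXAR3 were 12.06 and 10.45 for VIL1 and 14.97 and 12.89 for LGALS4. They were 16.39 and 16.19 for EPCAM, 15.85 and 16.02 for KRT8, and 18.33 and 18.47 for KRT18. For KRT20 they were 13.44 and 13.42, for CDH1 13.36 and 13.33, and for CDX1 9.28 and 9.26. CDX2, not above background on every array, read 7.1 and 4.93, and 6.05 and 3.8 after OXA. The part of these cell type markers in any result was not tested. The arrays came from 3 slides: slide 1 held the first replicates of untreated HT29 and of HT29 after OXA, and slides 2 and 3 held 8 arrays each, with all 6 groups on both. Differences within a slide are given beside the pooled ones where a member passed between 2 groups on its highest probe. For other differences they are given only in places.

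EGFR, ERBB2 and ERBB3 are receptor tyrosine kinases that signal as dimers. EGFR binds the ligands directly, ERBB2 has no known ligand and serves as the preferred dimer partner, and ERBB3 has a weak kinase and is a strong recruiter of PI3K. The ligands are made as membrane-bound precursors and are released by proteases of the ADAM family, and in the colon this system drives epithelial growth and is a target of antibodies used against colorectal cancer.

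In untreated cells, 2 of the 9 members passed the test between the lines, both lower in HTOXAR3, where 5.27% of all names were lower and 6.23% higher. After OXA in HT29, 2 members passed, 1 higher and 1 lower, against 8.37% of all names higher and 7.59% lower. In HTOXAR3, OXA raised 1 member, against 5.45% of all names higher and 4.9% lower. Adding Curcumin to OXA in HT29 gave 0 members past the test in limma and 5 at an unadjusted p under 0.05, where 3.12% of all names were higher and 2.39% lower. The same addition in HTOXAR3 lowered 1 member, against 4.44% of all names lower and 4.4% higher. OXA plus Curcumin set against untreated cells gave 3 members in HT29, 2 higher and 1 lower, against 9.63% and 8.91% of all names. In HTOXAR3 it gave 5 members, 2 higher and 3 lower, against 8.93% and 8.53% of all names. All these counts use the probe of highest mean for each gene. Among the lower members here, ERBB2 and ERBB3 each had another probe that passed in the opposite direction (1.02 and 1). That ERBB3 probe was also higher in untreated HTOXAR3 (0.61), against the direction counted in the basal comparison. EGFR was the 1 member that passed in each comparison of treated with untreated cells.

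Responses were compared between the lines as the response in HTOXAR3 minus that in HT29. For OXA, 0 members passed in limma and 4 had an unadjusted p under 0.05, where 0.621% of all names were higher and 0.401% lower. For OXA plus Curcumin, 1 member passed, ERBB2, with a negative difference, against 0.315% of all names higher and 0.539% lower. For the addition of Curcumin, 0 members passed in limma and 1 had an unadjusted p under 0.05, where 0.0276% of all names were higher and 0.116% lower. Median differences of the 9 members lay between -0.18 in the basal comparison and 0.11 in both comparisons of OXA plus Curcumin with untreated cells. Over all names the medians lay between -0.03 and 0.02. The arrays of the groups compared did not overlap for 6 members in the basal comparison, 3 after OXA in HT29, 6 after OXA in HTOXAR3, 6 and 7 for the addition of Curcumin in HT29 and HTOXAR3, and 7 for OXA plus Curcumin against untreated cells in each line. Over all names the shares not overlapping in these comparisons were 32.6%, 34.6%, 34.2%, 26.3%, 32%, 38.8% and 38.2%. EPGN, below the background threshold on all arrays, is among those not overlapping for both comparisons of HT29 cells with Curcumin.

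Some of these counts moved when 1 array was left out. For OXA in HT29, 1 member passed without untreated replicate 3 or without OXA replicate 1. For the addition of Curcumin in HT29, 1 member passed without OXA plus Curcumin replicate 2, whereas in HTOXAR3 0 passed without any 1 of the 6 arrays (limma, with 6 at an unadjusted p under 0.05 when all arrays were used). For OXA plus Curcumin in HTOXAR3, 3 members passed without untreated replicate 1 or without OXA plus Curcumin replicate 2 or 3. The 1 difference between the lines in the response to OXA plus Curcumin was lost without any 1 of 6 arrays, which are named with ERBB2.

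EGFR, the receptor that binds all 6 of these ligands, was measured by a probe near the 3′ end of the full-length transcript NM_005228 (chr7:55274841-55274900, GRCh37). In HT29 it read 9.34, 9.42 and 9.36 in untreated cells, 10.58, 10.55 and 10.51 after OXA and 10.22, 10.32 and 10.07 after OXA plus Curcumin. In HTOXAR3 it read 9.69, 9.67 and 9.67 in untreated cells, 10.99, 10.8 and 10.8 after OXA and 10.75, 10.76 and 10.65 after OXA plus Curcumin. All treated arrays lay above all untreated ones of both lines. The groups ran from HTOXAR3 after OXA, the highest, through HTOXAR3 after OXA plus Curcumin, HT29 after OXA, HT29 after OXA plus Curcumin and untreated HTOXAR3 to untreated HT29, and no neighbours in this order overlapped.

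OXA raised EGFR 2.25-fold in HT29 (log2 difference 1.17 ± 0.07, adjusted p = 2.85e-07). In HTOXAR3 the rise was 2.28-fold (1.19 ± 0.07, adjusted p = 1.16e-06). The responses of the lines differed by 0.01 ± 0.1 (adjusted p = 1). Within slides 1, 2 and 3 the difference in HT29 was 1.23, 1.14 and 1.15, and within slides 2 and 3 that in HTOXAR3 was 1.31 and 1.14. With the slide as a block the differences were 1.17 and 1.22. OXA plus Curcumin left EGFR above untreated cells, 1.78-fold in HT29 (0.83 ± 0.07, adjusted p = 6.78e-06) and 2.06-fold in HTOXAR3 (1.04 ± 0.07, adjusted p = 9.76e-07), with differences of 0.85 and 0.71 within slides 2 and 3 in HT29 and of 1.07 and 1.04 in HTOXAR3. Slide as a block gave 0.81 and 1.08. The lines differed in this response by 0.21 ± 0.1 (adjusted p = 1).

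Against OXA alone, the values with Curcumin added were lower and did not overlap in either line. The difference in HT29 was -0.34 ± 0.07 and narrowly missed the threshold (adjusted p = 0.0563), and that in HTOXAR3 was -0.14 ± 0.07 (adjusted p = 1). In HT29 it was -0.28 and -0.44 within slides 2 and 3, and with the slide as a block it was -0.36 and passed the test (adjusted p = 0.0338). It also passed without HT29 OXA plus Curcumin replicate 2 (-0.4, adjusted p = 0.0423), and over all alternatives tried its adjusted p ran from 0.00508 to 1. The lines differed in this effect by 0.2 ± 0.1 (adjusted p = 1). Untreated HTOXAR3 lay above untreated HT29 by 0.3 ± 0.07, with no overlap, and missed the threshold (adjusted p = 0.0731). The other EGFR probes on their own aside, the alternatives gave adjusted p from 0.0066 to 0.354. This basal difference passed with offset 50, with the processed intensity, without dim probes, with Benjamini-Hochberg adjustment and with the replicate block. It was 0.26 and 0.31 within slides 2 and 3 and 0.29 with the slide as a block.

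**Figure D1:**
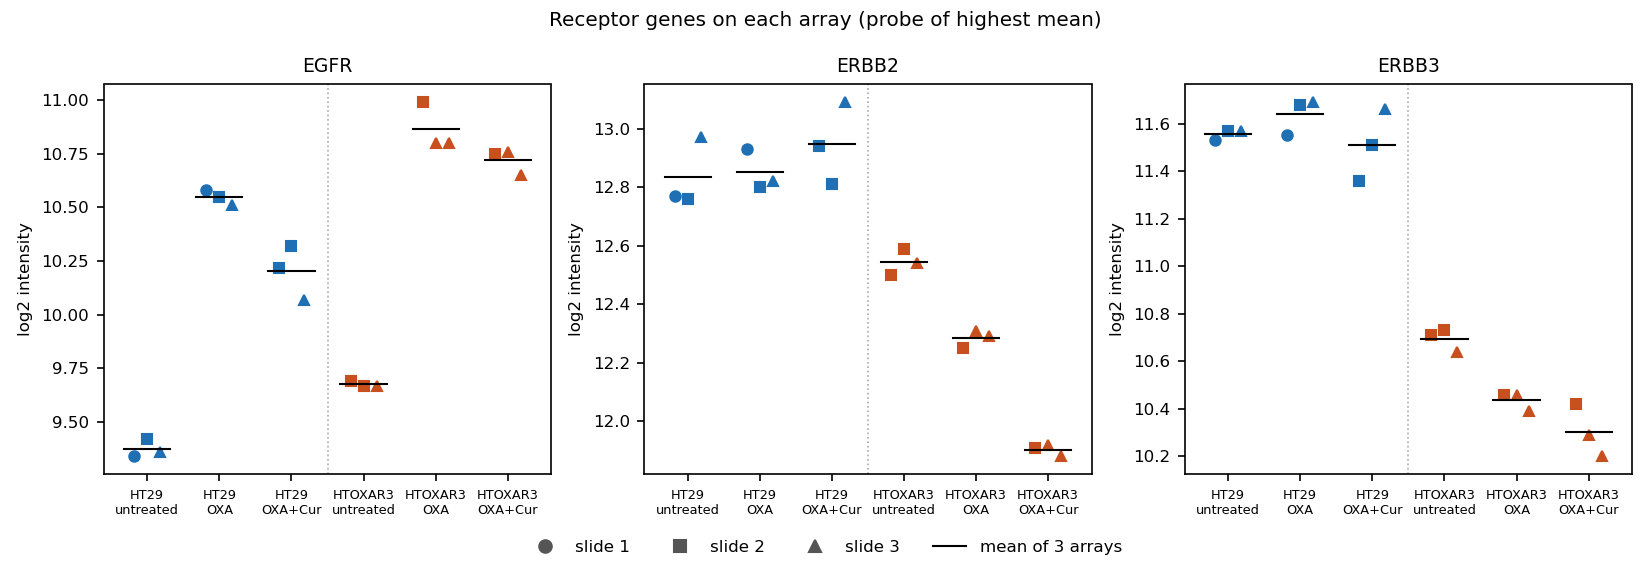
Log2 intensity of EGFR, ERBB2 and ERBB3 on each of the 18 arrays, by line and treatment (OXA+Cur, OXA plus Curcumin). Points are arrays, shaped by slide, and lines are means of 3 arrays: EGFR lies between 10.07 and 10.99 in all treated arrays against 9.34 to 9.69 in untreated ones, and ERBB2 is lowest in HTOXAR3 after OXA plus Curcumin, at 11.88 to 11.92.

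A pair of further EGFR probes was designed on the shorter transcripts NM_201283 and NM_201282, which encode truncated forms of the receptor, and these probes differed from the first. The NM_201283 probe (chr7:55224558-55224617, GRCh37) read 6.84, 6.83 and 6.96 in untreated HT29 and 7.85, 7.68 and 7.66 in untreated HTOXAR3. After OXA it read 7.07, 7.2 and 7.19 in HT29 and 8.02, 8.02 and 8 in HTOXAR3. OXA plus Curcumin gave 7.19, 7.11 and 6.87 in HT29 and 7.99, 8.03 and 7.91 in HTOXAR3. On this probe the lines did not overlap in any group, since the highest HT29 array (7.2) lay below the lowest HTOXAR3 array (7.66). Its basal difference was 0.86 ± 0.08 and passed over all probes (adjusted p = 5.26e-05), and its response to OXA, 0.28 ± 0.08 in each line, did not (adjusted p = 0.317 and 0.362). On the NM_201282 probe the basal difference was -0.09 ± 0.15 and did not pass. OXA gave a rise of 0.84 ± 0.15 on this probe in HTOXAR3 (adjusted p = 0.0156). In HT29 the difference of 0.59 ± 0.15 did not pass (adjusted p = 0.121), and the lines differed in it by 0.25 ± 0.22 (adjusted p = 1). OXA plus Curcumin against untreated cells passed on neither of these probes, with 0.18 ± 0.08 in HT29 and 0.25 ± 0.08 in HTOXAR3 on the NM_201283 probe (adjusted p = 1 and 0.539). On the NM_201282 probe it gave 0.18 ± 0.15 and 0.51 ± 0.15 (adjusted p = 1 and 0.274). When the 3 probes were averaged, EGFR passed after OXA and after OXA plus Curcumin in both lines, with smaller differences of 0.68, 0.77, 0.4 and 0.6.

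Promoter sequences are shown for EGFR and HBEGF, which rose under OXA plus Curcumin in both lines, and for AREG and EREG, which are neighbours on chromosome 4. The promoter table used here (RefSeq, GRCh38.p14) has windows for all members except ERBB3, 10 in all, each of 300 bases from 250 before to 50 after a listed start of the gene, of which some genes have more than 1. Capitals mark matches on either strand to 4 motifs, the AP-1 motif TGANTCA, the CRE motif TGACGTCA, the GC box GGGCGG and the TATA box TATAAA, which 7.71%, 1.85%, 45% and 11.5% of all 35116 promoter windows hold. Of the 10 member windows, 2 hold the first, 1 the second, 5 the third and 4 the fourth. A match describes letters only. The EGFR windows are at chr7:55018767-55019066 and chr7:55109589-55109888, both on the plus strand: the first has 3 GC boxes, and the second has 2 AP-1 and 2 TATA motifs. The second window belongs to another listed start, downstream of the first, and the first holds no AP-1 or TATA motif.
EGFR window 1: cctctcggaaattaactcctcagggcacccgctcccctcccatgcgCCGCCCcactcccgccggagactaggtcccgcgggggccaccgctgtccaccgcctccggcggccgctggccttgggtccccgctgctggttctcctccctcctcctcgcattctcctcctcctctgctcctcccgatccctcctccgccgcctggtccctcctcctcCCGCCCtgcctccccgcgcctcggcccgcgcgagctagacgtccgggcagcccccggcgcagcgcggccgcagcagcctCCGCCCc
EGFR window 2: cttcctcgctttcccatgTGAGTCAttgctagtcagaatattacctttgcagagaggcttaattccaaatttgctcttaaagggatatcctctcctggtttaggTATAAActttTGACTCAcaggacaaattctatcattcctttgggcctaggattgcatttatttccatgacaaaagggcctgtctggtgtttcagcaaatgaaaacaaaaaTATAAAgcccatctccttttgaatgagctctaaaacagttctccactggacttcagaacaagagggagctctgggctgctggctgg

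ERBB2, the partner receptor without a ligand of its own, was measured by a probe printed on 10 spots (chr17:37884829-37884888, GRCh37). HT29 arrays read 12.77, 12.76 and 12.97 in untreated cells, 12.93, 12.8 and 12.82 after OXA and 12.94, 12.81 and 13.09 after OXA plus Curcumin. HTOXAR3 arrays read 12.5, 12.59 and 12.54 in untreated cells, 12.25, 12.31 and 12.29 after OXA and 11.91, 11.92 and 11.88 after OXA plus Curcumin. The 3 HT29 groups overlapped each other, whereas the HTOXAR3 groups formed 3 separate steps, all below the lowest HT29 array.

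OXA plus Curcumin lowered ERBB2 in HTOXAR3 1.56-fold against untreated cells (-0.64 ± 0.08, adjusted p = 0.000164), with -0.64 within slide 2, -0.64 within slide 3 and -0.67 with the slide as a block. In HT29 the same comparison gave 0.11 ± 0.08 (adjusted p = 1). The difference between these responses was -0.75 ± 0.11, or 1.68-fold, and passed the test (adjusted p = 0.0158), and with the slide as a block it was -0.79. Curcumin added to OXA lowered ERBB2 in HTOXAR3 1.3-fold (-0.38 ± 0.08, adjusted p = 0.0303), by -0.34 and -0.4 within slides 2 and 3 and by -0.38 with the slide as a block. In HT29 the addition gave 0.09 ± 0.08 (adjusted p = 1), and the lines differed in it by -0.47 ± 0.11, which did not pass (adjusted p = 0.662). OXA alone gave -0.26 ± 0.08 in HTOXAR3 (adjusted p = 0.265) and 0.01 ± 0.08 in HT29 (adjusted p = 1), and the basal difference was -0.29 ± 0.08 (adjusted p = 0.147).

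The difference between the lines lost its call without untreated HT29 replicate 1 (-0.72, adjusted p = 0.0626) or 2 (-0.71, 0.0641), without untreated HTOXAR3 replicate 2 (-0.73, 0.0622) or 3 (-0.75, 0.055), and without HTOXAR3 OXA plus Curcumin replicate 1 (-0.75, 0.0559) or 3 (-0.74, 0.0641). It also lost it under both scalings to the 75th percentile (-0.66, 0.0639 and -0.67, 0.0643), with the 2 ERBB2 probes averaged (-0.18, adjusted p = 1) and in a fit of the groups compared alone (-0.75, 0.162), its adjusted p running from 0.00143 to 1. The effect of adding Curcumin in HTOXAR3 lost its call without OXA replicate 1 (-0.4, adjusted p = 0.0889), 2 (-0.37, 0.145) or 3 (-0.37, 0.129) and without OXA plus Curcumin replicate 1 (-0.38, 0.118), 2 (-0.39, 0.0994) or 3 (-0.37, 0.156). In a fit of those groups alone it was -0.38 (adjusted p = 0.222). The second probe on its own aside, the range over its alternatives was 0.00274 to 0.222.

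A second ERBB2 probe, designed on ENST00000584014 (chr17:37851136-37851195, GRCh37), ran the other way with Curcumin in HTOXAR3. Its basal difference, -0.4 ± 0.11, had the sign of the first probe and did not pass (adjusted p = 0.234). The HT29 arrays gave 6.88, 6.67 and 6.78 in untreated cells, 6.76, 6.55 and 6.71 after OXA and 7.55, 7.41 and 7.26 after OXA plus Curcumin. The HTOXAR3 arrays gave 6.55, 6.12 and 6.45 in untreated cells, 6.49, 6.53 and 6.48 after OXA and 7.31, 7.33 and 7.52 after OXA plus Curcumin. In both lines the arrays with Curcumin lay above all others. Adding Curcumin raised this probe by 0.73 ± 0.11 in HT29 (adjusted p = 0.00757) and by 0.89 ± 0.11 in HTOXAR3 (adjusted p = 0.000985), and the lines differed in this by 0.16 ± 0.16 (adjusted p = 1). Against untreated cells OXA plus Curcumin raised it by 0.63 ± 0.11 in HT29 (adjusted p = 0.00621) and by 1.02 ± 0.11 in HTOXAR3 (adjusted p = 9.69e-05), and the lines differed in this by 0.38 ± 0.16 (adjusted p = 1). With both probes averaged, the HTOXAR3 differences turned positive and did not pass, at 0.26 for the addition of Curcumin (adjusted p = 0.197) and 0.19 against untreated cells (adjusted p = 0.662, of a range from 1.48e-05 to 0.662). In HT29 the averaged probes passed, at 0.41 for the addition of Curcumin (adjusted p = 0.0114, of a range from 0.0114 to 1) and 0.37 against untreated cells (adjusted p = 0.00776, of a range from 0.00776 to 1). The basal difference also passed with them, at -0.35 (adjusted p = 0.0204, of a range from 0.0133 to 1). These ranges leave out the second probe on its own.

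ERBB3, the receptor with a weak kinase, was measured by a probe near the 3′ end of NM_001982 (chr12:56496160-56496219, GRCh37). In HT29 it read 11.53, 11.57 and 11.57 in untreated cells, 11.55, 11.68 and 11.69 after OXA and 11.36, 11.51 and 11.66 after OXA plus Curcumin. In HTOXAR3 it read 10.71, 10.73 and 10.64 in untreated cells, 10.46, 10.46 and 10.39 after OXA and 10.42, 10.29 and 10.2 after OXA plus Curcumin. Every HTOXAR3 array lay below every HT29 array, with a gap of 0.63 between the nearest groups. In HT29 the groups overlapped, and in HTOXAR3 untreated cells stood above both treated groups, which overlapped.

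In untreated cells ERBB3 was 1.82-fold lower in HTOXAR3 than in HT29 (-0.86 ± 0.08, adjusted p = 1.73e-05), with -0.85 and -0.93 within slides 2 and 3 and -0.89 with the slide as a block. OXA plus Curcumin lowered it 1.31-fold in HTOXAR3 (-0.39 ± 0.08, adjusted p = 0.0164), with -0.3 and -0.4 within slides 2 and 3 and -0.39 with the slide as a block. In HT29 that comparison gave -0.05 ± 0.08 (adjusted p = 1), and the lines differed in it by -0.34 ± 0.11 (adjusted p = 1). OXA alone gave -0.25 ± 0.08 in HTOXAR3 (adjusted p = 0.37) and 0.09 ± 0.08 in HT29 (adjusted p = 1), a difference between lines of -0.34 ± 0.11 (adjusted p = 1).

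The fall of ERBB3 in HTOXAR3 lost its call without untreated replicate 1 (-0.38, adjusted p = 0.0773) or 2 (-0.37, 0.0867) and without OXA plus Curcumin replicate 2 (-0.38, 0.0771) or 3 (-0.34, 0.111). It was also lost with the processed intensity (-0.35, 0.138) and in a fit of those groups alone (-0.39, 0.233). The other ERBB3 probes on their own aside, the range of adjusted p was 0.00148 to 0.233. The basal difference was -0.24 and did not pass with the 3 ERBB3 probes averaged (adjusted p = 0.422). Its range was 1.35e-06 to 0.422, again without the other probes on their own.

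A second ERBB3 probe, on the short transcript NM_001005915 that encodes a truncated receptor (chr12:56479217-56479276, GRCh37), gave a different pattern. HT29 arrays read 9.98, 9.89 and 9.77 in untreated cells, 9.92, 9.95 and 9.96 after OXA and 11.18, 10.91 and 10.76 after OXA plus Curcumin. HTOXAR3 arrays read 10.5, 10.44 and 10.51 in untreated cells, 10.54, 10.55 and 10.46 after OXA and 11.47, 11.43 and 11.55 after OXA plus Curcumin. Untreated and OXA arrays overlapped in each line, and all Curcumin arrays of a line stood above them. Adding Curcumin raised this probe 2.01-fold in HT29 (1.01 ± 0.09, adjusted p = 0.000101) and 1.96-fold in HTOXAR3 (0.97 ± 0.09, adjusted p = 8.56e-05), where 4.62% and 7.84% of all probes passed. The lines differed in this by -0.04 ± 0.13 (adjusted p = 1). In untreated cells it was higher in HTOXAR3 by 0.61 ± 0.09 (adjusted p = 0.00235), opposite to the 3′ probe. With OXA plus Curcumin against untreated cells it rose by 1.07 ± 0.09 in HT29 (adjusted p = 6.9e-06) and by 1 ± 0.09 in HTOXAR3 (adjusted p = 1.59e-05). The third probe (chr12:56482380-56482439) ran from 4.89 to 6.39, was below the background threshold on 1 array and passed in no comparison, with 0.46 ± 0.19 for OXA plus Curcumin in HTOXAR3 (adjusted p = 1). Averaging the 3 ERBB3 probes gave 0.36 for OXA plus Curcumin in HTOXAR3, a rise that passed (adjusted p = 0.0286).

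**Figure D2:**
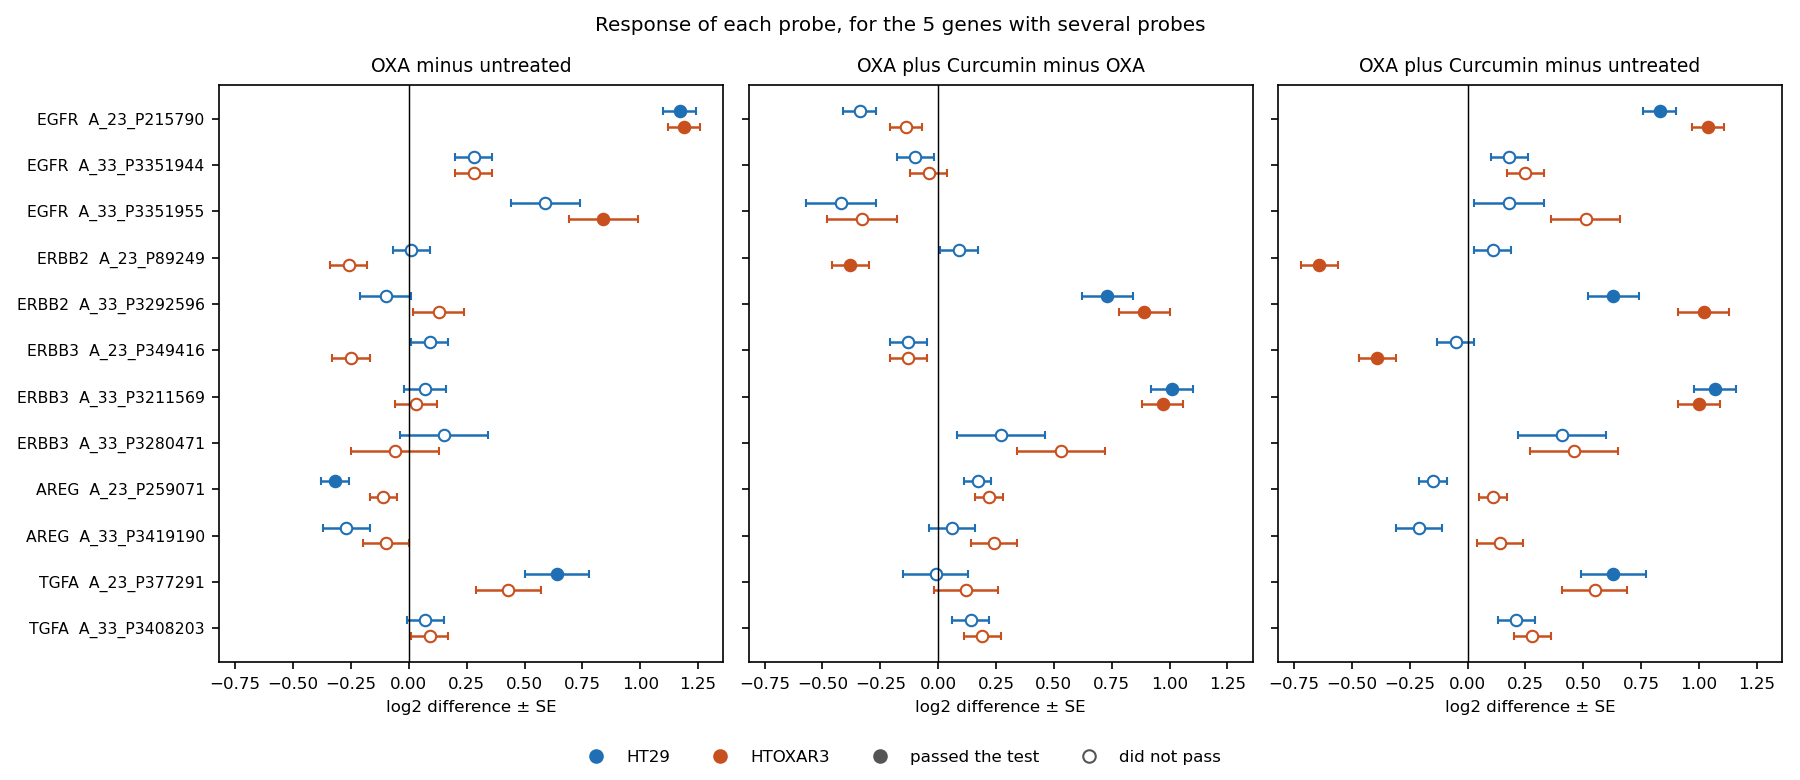
Log2 difference (horizontal axis, ± SE, 3 arrays per group) of each probe of the 5 genes with several probes, for OXA against untreated, Curcumin added to OXA, and OXA plus Curcumin against untreated, in HT29 and HTOXAR3. Filled points passed the test over all probes: the ERBB3 probe A_33_P3211569 lies at 1.01 and 0.97 for the addition of Curcumin, where the 3′ ERBB3 probe lies at -0.13 in both lines.

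AREG, amphiregulin, a ligand of EGFR, was measured by a probe at chr4:75320518-75320577 (GRCh37). The HT29 arrays gave 14.6, 14.6 and 14.68 in untreated cells, 14.25, 14.37 and 14.3 after OXA and 14.51, 14.4 and 14.51 after OXA plus Curcumin. The HTOXAR3 arrays gave 13.62, 13.6 and 13.67 in untreated cells, 13.47, 13.62 and 13.48 after OXA and 13.78, 13.68 and 13.75 after OXA plus Curcumin. All HTOXAR3 arrays lay below all HT29 arrays, with a gap of 0.47 between the nearest groups. Within HT29, untreated cells were highest and OXA cells lowest, without overlap, whereas in HTOXAR3 untreated and OXA arrays overlapped.

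Untreated HTOXAR3 had 1.99-fold less AREG than untreated HT29 (-1 ± 0.06, adjusted p = 2.67e-07), with -0.99 and -1 within slides 2 and 3 and -1.01 with the slide as a block. The second AREG probe (chr4:75318293-75318352) gave -1.02 ± 0.1 (adjusted p = 4.58e-05), and on it too every HT29 array (12.83 to 13.39) lay above every HTOXAR3 array (11.99 to 12.48). OXA lowered AREG 1.25-fold in HT29 (-0.32 ± 0.06, adjusted p = 0.00924), with -0.36, -0.24 and -0.38 within slides 1, 2 and 3 and -0.32 with the slide as a block. In HTOXAR3 OXA gave -0.11 ± 0.06 (adjusted p = 1), and the lines differed in this response by 0.22 ± 0.08 (adjusted p = 1). The fall in HT29 lost its call without untreated replicate 3 (-0.3, adjusted p = 0.0533) or OXA replicate 1 (-0.3, 0.051), with the 2 probes averaged (-0.3, 0.0828), on the second probe alone (-0.27, 0.809) and in a fit of those groups alone (-0.32, 0.441). The second probe aside, the alternatives gave adjusted p from 0.000399 to 0.441. Adding Curcumin to OXA gave 0.17 ± 0.06 in HT29 (adjusted p = 0.911) and 0.22 ± 0.06 in HTOXAR3 (adjusted p = 0.247), and against untreated cells OXA plus Curcumin gave -0.15 ± 0.06 in HT29 (adjusted p = 0.877) and 0.11 ± 0.06 in HTOXAR3 (adjusted p = 1). The HT29 difference was larger and passed under both scalings to the 75th percentile, at -0.33 (adjusted p = 0.0258) and -0.34 (adjusted p = 0.00417), of a range from 0.00417 to 1. Those scalings moved the median of all names in this comparison to -0.17 and -0.19.

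EREG, epiregulin, lies next to AREG on chromosome 4 and its product binds EGFR and ERBB4. Its probe (chr4:75254009-75254068, GRCh37) read 11.94, 12.02 and 12.02 in untreated HT29, 11.59, 11.67 and 11.8 after OXA and 11.55, 11.44 and 11.5 after OXA plus Curcumin. In HTOXAR3 it read 11.84, 11.71 and 11.9 in untreated cells, 11.99, 12.08 and 12.2 after OXA and 11.8, 11.84 and 11.94 after OXA plus Curcumin. In HT29 the 3 groups stepped down from untreated to OXA to OXA plus Curcumin without overlap, while in HTOXAR3 the OXA arrays were the highest and the other groups overlapped. Over both lines the order was HTOXAR3 after OXA, untreated HT29, HTOXAR3 after OXA plus Curcumin, untreated HTOXAR3, HT29 after OXA and, apart from all of these, HT29 after OXA plus Curcumin.

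OXA plus Curcumin lowered EREG 1.41-fold in HT29 (-0.5 ± 0.08, adjusted p = 0.00168), with -0.53 and -0.51 within slides 2 and 3 and -0.52 with the slide as a block. A fit of those groups alone gave -0.5 without a call (adjusted p = 0.0892, of a range from 0.000151 to 0.0892). In HTOXAR3 it gave 0.04 ± 0.08 (adjusted p = 1), and the lines differed in this response by 0.54 ± 0.11, which did not pass (adjusted p = 0.153). OXA alone gave -0.31 ± 0.08 in HT29 (adjusted p = 0.0847) and 0.27 ± 0.08 in HTOXAR3 (adjusted p = 0.236), neither past the threshold, and the difference of 0.58 ± 0.11 between the lines also missed it (adjusted p = 0.0935, with alternatives from 0.00844 to 0.447). That difference passed with offset 50, with the processed intensity, without dim probes and with Benjamini-Hochberg adjustment, and with the slide as a block it was 0.55. In HT29 the replicate numbers paired the arrays of OXA and untreated cells, each pair on a shared slide. With the replicate block the HT29 difference of -0.31 passed (adjusted p = 0.0378), as it did with the slide as a block (-0.31, adjusted p = 0.0311), over a range from 0.00765 to 0.78. Differences within slides 1, 2 and 3 were -0.35, -0.35 and -0.22 in HT29, and those within slides 2 and 3 were 0.21 and 0.24 in HTOXAR3. Adding Curcumin to OXA gave -0.19 ± 0.08 in HT29 (adjusted p = 1) and -0.23 ± 0.08 in HTOXAR3 (adjusted p = 0.627).

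The promoter windows of AREG (chr4:74444886-74445185) and EREG (chr4:74364895-74365194), both on the plus strand of GRCh38.p14 and from RefSeq, are shown because these neighbouring ligand genes differed in how they stood between the lines. The AREG window has a CRE motif from -65 to -58, a TATA box from -29 to -24 and a GC box from -9 to -4, counted from the start of the gene. The EREG window has a TATA box from -32 to -27 and none of the other 3 motifs.
AREG: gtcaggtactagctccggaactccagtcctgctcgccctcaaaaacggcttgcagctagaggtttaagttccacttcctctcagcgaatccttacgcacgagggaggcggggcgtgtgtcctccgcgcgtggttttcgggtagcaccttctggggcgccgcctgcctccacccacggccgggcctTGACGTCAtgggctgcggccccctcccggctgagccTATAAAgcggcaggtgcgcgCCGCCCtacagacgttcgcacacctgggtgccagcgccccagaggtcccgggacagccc
EREG: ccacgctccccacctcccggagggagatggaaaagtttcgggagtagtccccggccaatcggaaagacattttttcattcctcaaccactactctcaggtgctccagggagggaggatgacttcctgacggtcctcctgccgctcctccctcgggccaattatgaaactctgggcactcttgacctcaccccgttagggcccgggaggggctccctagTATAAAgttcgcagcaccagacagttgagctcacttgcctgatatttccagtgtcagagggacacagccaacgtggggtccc

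TGFA, transforming growth factor alpha, an EGFR ligand, did not pass in any comparison on its higher probe (chr2:70683472-70683531, GRCh37). Group means ran from 10.05 in untreated HT29 to 10.39 in HTOXAR3 after OXA plus Curcumin, and all neighbouring groups overlapped except the 2 untreated ones. OXA plus Curcumin gave 0.28 ± 0.07 in HTOXAR3, on arrays that did not overlap (adjusted p = 0.116). With the slide as a block this was 0.3 and passed (adjusted p = 0.0424, of a range from 0.0104 to 0.494). The second TGFA probe (chr2:70675319-70675378) read 6.44, 6.09 and 6.37 in untreated HT29, 7.16, 6.86 and 6.79 after OXA and 7.09, 6.94 and 6.75 after OXA plus Curcumin, and both treated groups stood above the untreated one. On it, OXA gave a rise of 0.64 ± 0.14 in HT29 (adjusted p = 0.044), and OXA plus Curcumin one of 0.63 ± 0.14 (adjusted p = 0.0415). In HTOXAR3 the same differences were 0.43 ± 0.14 (adjusted p = 0.6) and 0.55 ± 0.14 (adjusted p = 0.109), and the lines differed by -0.21 ± 0.2 and -0.08 ± 0.2 (adjusted p = 1 for both).

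HBEGF, the heparin-binding ligand of EGFR and ERBB4, was measured at chr5:139713052-139713111 (GRCh37). In HT29 it read 9.1, 8.93 and 9.61 in untreated cells, 9.45, 9.38 and 9.48 after OXA and 9.95, 10.01 and 10.41 after OXA plus Curcumin. HTOXAR3 arrays read 8.81, 8.79 and 9.03 in untreated cells, 9.44, 9.52 and 9.29 after OXA and 9.95, 9.97 and 10.17 after OXA plus Curcumin. In both lines the arrays with Curcumin were above all other arrays, of which the highest was an untreated HT29 array at 9.61. In the order of mean levels HT29 and HTOXAR3 with Curcumin came first, followed by HT29 after OXA, HTOXAR3 after OXA, untreated HT29 and untreated HTOXAR3. Untreated HT29 spread from 8.93 to 9.61 and overlapped HT29 after OXA, and the lines overlapped after each treatment.

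OXA plus Curcumin raised HBEGF 1.88-fold in HT29 (0.91 ± 0.16, adjusted p = 0.00466) and 2.22-fold in HTOXAR3 (1.15 ± 0.16, adjusted p = 0.000648), and the lines differed in this by 0.24 ± 0.22 (adjusted p = 1). Within slides 2 and 3 the differences were 1.05 and 0.8 in HT29 and 1.15 and 1.04 in HTOXAR3, and with the slide as a block they were 0.93 and 1.07. A fit of the 2 HT29 groups alone gave 0.91 without a call (adjusted p = 0.404, of a range from 0.000347 to 0.404). The steps that make up this response did not pass singly: Curcumin added to OXA gave 0.68 ± 0.16 in HT29 (adjusted p = 0.112) and 0.62 ± 0.16 in HTOXAR3 (adjusted p = 0.154), and OXA alone gave 0.23 ± 0.16 (adjusted p = 1) and 0.54 ± 0.16 (adjusted p = 0.305). The HBEGF promoter, at chr5:140346554-140346853 on the minus strand (GRCh38.p14, RefSeq), is shown since this gene was the member with the highest fold change against untreated HTOXAR3 after OXA plus Curcumin. It has 5 GC boxes, a pair of which share 1 base, and none of the other 3 motifs.
HBEGF: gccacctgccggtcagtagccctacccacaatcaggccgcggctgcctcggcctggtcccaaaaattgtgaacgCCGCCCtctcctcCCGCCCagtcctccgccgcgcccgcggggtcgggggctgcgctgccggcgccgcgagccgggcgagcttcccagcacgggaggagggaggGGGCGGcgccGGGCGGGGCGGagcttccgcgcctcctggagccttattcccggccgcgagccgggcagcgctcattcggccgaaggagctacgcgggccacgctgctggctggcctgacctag

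BTC, betacellulin, which binds EGFR and ERBB4, was measured at chr4:75675838-75675897 (GRCh37). HT29 arrays read 7.55, 7.38 and 7.91 in untreated cells, 7.94, 7.27 and 7.42 after OXA and 7.15, 7.19 and 7.04 after OXA plus Curcumin. The HTOXAR3 arrays gave 8.08, 7.71 and 7.87 in untreated cells, 7.61, 7.57 and 7.48 after OXA and 7.2, 7.04 and 6.91 after OXA plus Curcumin. The arrays with Curcumin were the lowest in both lines and overlapped each other across lines, whereas untreated and OXA arrays of HT29 overlapped. OXA plus Curcumin lowered BTC 1.78-fold in HTOXAR3 (-0.84 ± 0.17, adjusted p = 0.0158), with -0.69 and -0.89 within slides 2 and 3 and -0.84 with the slide as a block. In HT29 it gave -0.49 ± 0.17 (adjusted p = 0.459), and the lines differed in this by -0.35 ± 0.24 (adjusted p = 1). The fall in HTOXAR3 lost its call without untreated replicate 1 (-0.74, adjusted p = 0.103) or 3 (-0.84, 0.0608) and without OXA plus Curcumin replicate 2 (-0.83, 0.0681) or 3 (-0.77, 0.0982). A fit of those groups alone gave -0.84 (adjusted p = 0.0977), in a range from 0.00143 to 0.103.

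EPGN, epigen, a low-affinity EGFR ligand, ran from 2.37 to 4.43 and was not above background on any of the 18 arrays, so no fold is given for it. EPGN, EREG, AREG and BTC lie in this order on chromosome 4, at 74308220, 74364895, 74444886 and 74794474 (first bases of their promoter windows, GRCh38.p14). AREG stood lower in HTOXAR3 in every group, EREG crossed between the lines, BTC overlapped between them, and EPGN was not detected, so that the neighbours did not share 1 pattern.

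**Figure D3:**
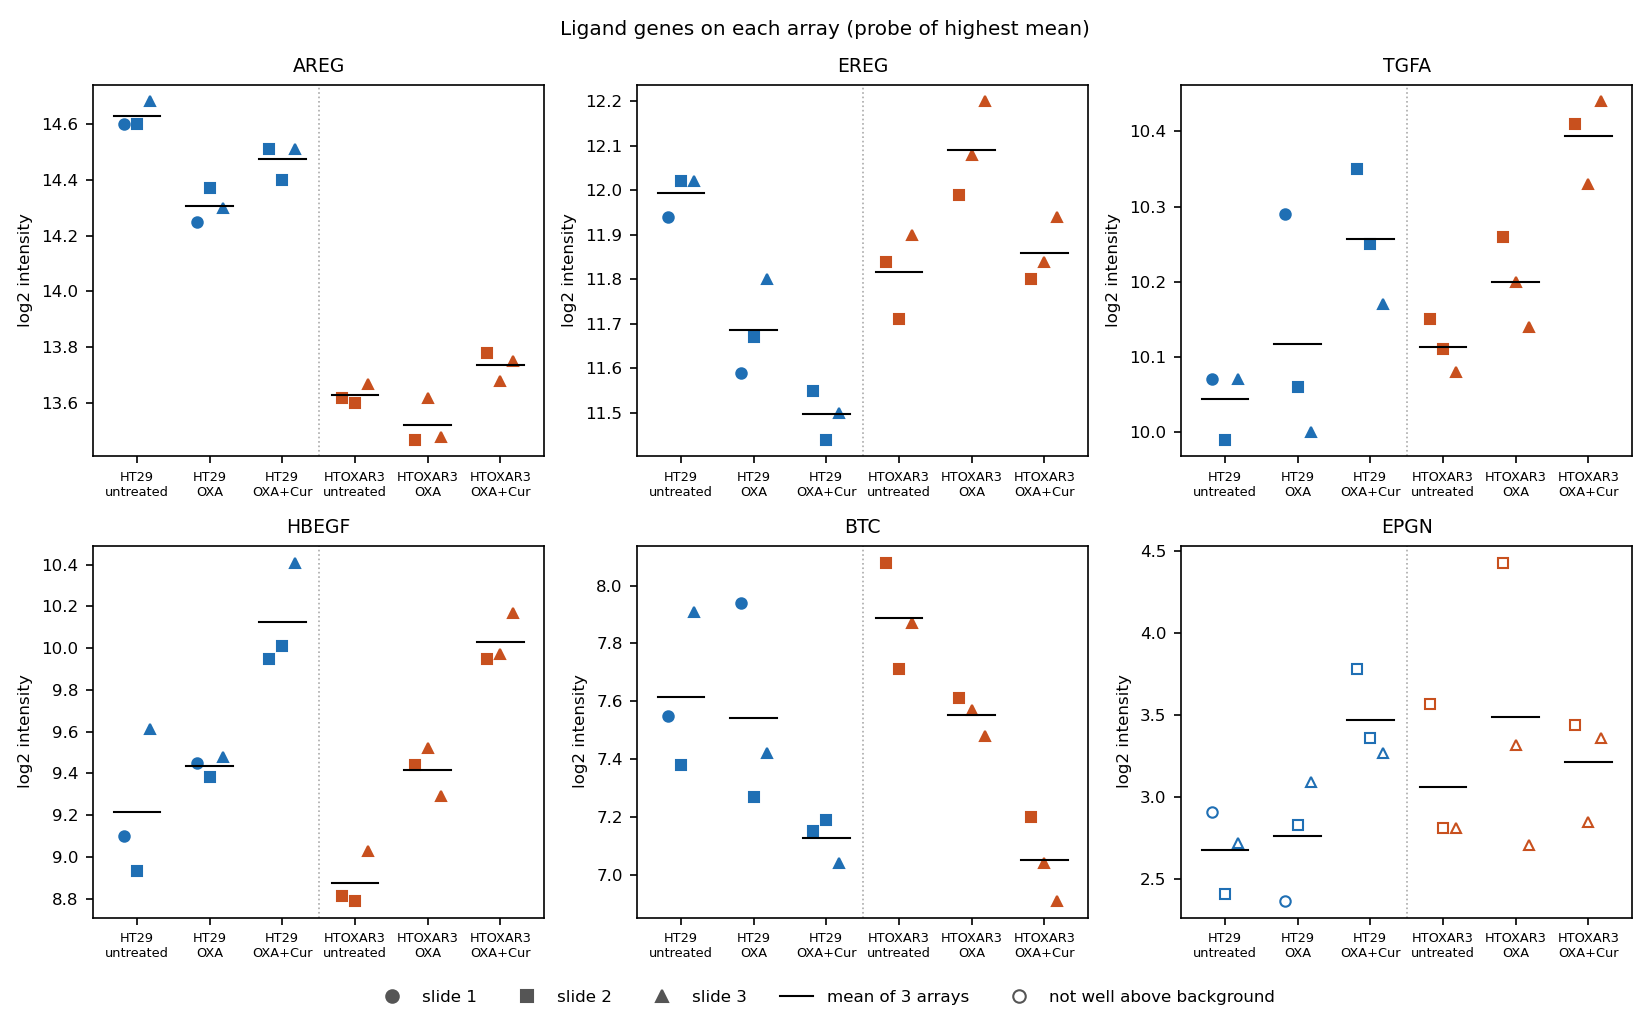
Log2 intensity of the 6 ligand genes on each of the 18 arrays, by line and treatment, with points shaped by slide and a line at the mean of 3 arrays. Open points are not above background: AREG lies between 14.25 and 14.68 in HT29 and between 13.47 and 13.78 in HTOXAR3, and HBEGF is highest with Curcumin, at 9.95 to 10.41.

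**Figure D4:**
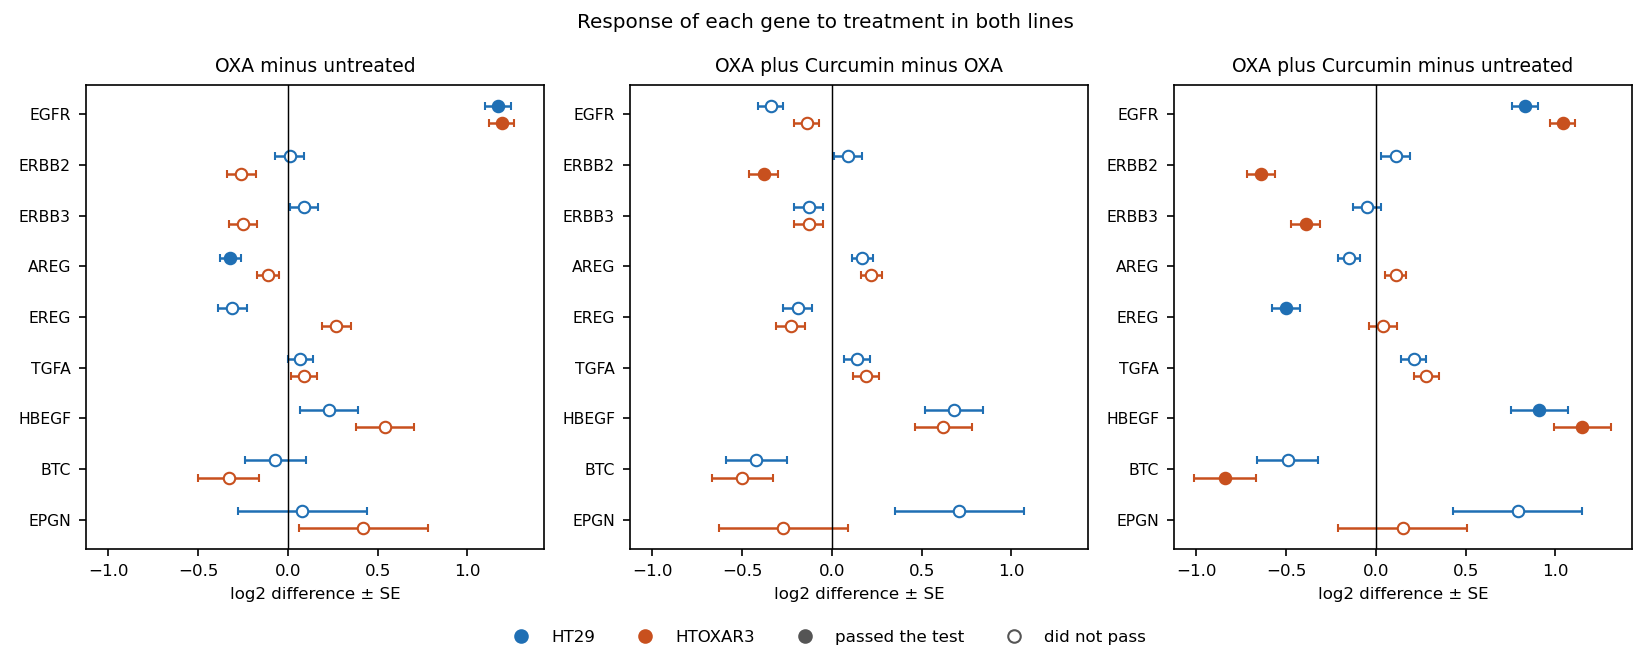
Log2 difference (horizontal axis, ± SE, 3 arrays per group) of each of the 9 genes for OXA against untreated, Curcumin added to OXA, and OXA plus Curcumin against untreated, with HT29 and HTOXAR3 side by side. Filled points passed the test: EGFR lies at 1.17 and 1.19 after OXA, and HBEGF at 0.91 and 1.15 after OXA plus Curcumin.

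The members differed in how far they moved. Group means of EGFR spanned 1.49, of ERBB3 1.34, of HBEGF 1.24, of AREG 1.11, of ERBB2 1.05, of BTC 0.84, of EREG 0.59 and of TGFA 0.34. Among 17407 gene names above background on all 18 arrays, those closest in pattern to EGFR were TMEM79, ZMIZ2 and PDLIM2, with root mean square differences of 0.13, 0.14 and 0.15 in log2 intensity around each gene's own mean. Closest to ERBB3 were FGFR4, RERE and FZD5 (0.09, 0.1 and 0.1), and closest to HBEGF were RBKS, PSMB2 and KLF2 (0.17, 0.18 and 0.19).

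The rest of the pathway was described through 6 lists with 81 genes, all of them on the array. Above background on all 18 arrays were 13 of 13 ERK feedback genes, 15 of 15 of receptor restraint and 11 of 12 of ligand release. So were 18 of 19 of adaptors and RAS-ERK, 13 of 16 of PI3K, AKT and STAT, and 0 of 6 other family genes. Over all names it was 17407 of 36204, so shares over all names cover more undetected genes than most lists do. The part of detection in the counts was not tested. After OXA, 18 of the 81 rose and 9 fell in HT29, with a median of 0.14 against -0.01 over all names, and 20 rose and 2 fell in HTOXAR3, with a median of 0.15 against 0.01. Adding Curcumin raised 5 and lowered 1 in HT29 and raised 6 and lowered 9 in HTOXAR3, with medians of -0.01 and -0.07. Against untreated cells, OXA plus Curcumin raised 22 and lowered 10 in HT29 and raised 27 and lowered 11 in HTOXAR3, with medians of 0.11 and 0.13. In untreated cells 7 were higher and 9 lower in HTOXAR3, with a median of -0.02. The 13 ERK feedback genes are a list of inhibitors and transcription factors that ERK signalling induces. After OXA, 7 of them rose and 1 fell in HT29 (median 0.45), and 6 rose and 0 fell in HTOXAR3 (median 0.41). With Curcumin added, 1 rose and 0 fell in HT29 (median -0.03), and 1 rose and 3 fell in HTOXAR3 (median -0.17). Under OXA plus Curcumin, 6 rose and 2 fell in HT29 (median 0.38), and 6 rose and 3 fell in HTOXAR3 (median 0.16). In untreated cells 3 were higher and 1 lower in HTOXAR3 (median 0.04). Over all names 8.37% were higher and 7.59% lower after OXA in HT29, and 5.45% and 4.9% in HTOXAR3. For the addition of Curcumin the shares higher and lower were 3.12% and 2.39% in HT29 and 4.4% and 4.44% in HTOXAR3. For OXA plus Curcumin they were 9.63% and 8.91% in HT29 and 8.93% and 8.53% in HTOXAR3, and in the basal comparison 6.23% and 5.27%.

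DUSP5, a nuclear phosphatase of ERK and itself induced by ERK signalling, rose beside EGFR. It read 7.85, 7.78 and 8.06 in untreated HT29, 9.54, 9.62 and 9.62 after OXA and 10.32, 10.1 and 10.33 after OXA plus Curcumin. In HTOXAR3 it read 8.35, 8.36 and 8.77, then 9.79, 9.89 and 9.71, then 10.61, 10.42 and 10.71. The 3 groups of each line did not overlap. OXA raised it 3.25-fold in HT29 (1.7 ± 0.12, adjusted p = 1.26e-06) and 2.46-fold in HTOXAR3 (1.3 ± 0.12, adjusted p = 4.09e-05), and unlike EGFR it rose further with Curcumin, 1.58-fold (0.66 ± 0.12, adjusted p = 0.0222) and 1.72-fold (0.79 ± 0.12, adjusted p = 0.00375). DUSP6, the cytoplasmic ERK phosphatase, rose 1.92-fold after OXA in HT29 (0.94 ± 0.1, adjusted p = 7.95e-05) and 1.94-fold in HTOXAR3 (0.96 ± 0.1, adjusted p = 0.000142). MAPK3, the gene of ERK1, rose 1.92-fold in HT29 (0.94 ± 0.06, adjusted p = 9.52e-07) and by 0.51 ± 0.06 in HTOXAR3 (adjusted p = 0.000649). The adaptor gene GAB1 rose 2-fold in HTOXAR3 (1 ± 0.1, adjusted p = 0.000118) and by 0.93 ± 0.1 in HT29 (adjusted p = 0.000101).

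LRIG1, which promotes breakdown of the EGFR family receptors, was lower in HTOXAR3. It read 10.23, 10.17 and 10.15 in untreated HT29 and 8.63, 8.71 and 8.72 in untreated HTOXAR3, and after OXA plus Curcumin 9.99, 10.09 and 10.16 against 7.89, 8.02 and 7.78. The lines did not overlap. The basal difference was -1.5 ± 0.07 (2.82-fold, adjusted p = 1.37e-08). In HTOXAR3 the addition of Curcumin lowered it 1.73-fold (-0.79 ± 0.07, adjusted p = 3.26e-05), against -0.23 ± 0.07 in HT29 (adjusted p = 0.443), and the lines differed in this by -0.56 ± 0.09 (adjusted p = 0.141). Its response to OXA plus Curcumin differed between the lines by -0.69 ± 0.09 (adjusted p = 0.0133), the 1 such difference among the 81 genes. GAB2, an adaptor that feeds PI3K, was 2.41-fold higher in untreated HTOXAR3 (1.27 ± 0.09, adjusted p = 1.42e-06) and rose with Curcumin 1.86-fold in HT29 (0.9 ± 0.09, adjusted p = 0.000193) and 1.94-fold in HTOXAR3 (0.95 ± 0.09, adjusted p = 7.54e-05). PIK3R1, the regulatory subunit of PI3K, fell 1.53-fold in HT29 (-0.62 ± 0.07, adjusted p = 1e-04) and 2.12-fold in HTOXAR3 (-1.08 ± 0.07, adjusted p = 5.98e-07) under OXA plus Curcumin.

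Among 12 genes of ligand release, 5 rose and 1 fell under OXA plus Curcumin in each line, where 9.63% of all names were higher and 8.91% lower in HT29 and 8.93% and 8.53% in HTOXAR3. ADAM8 was 1.95-fold lower in untreated HTOXAR3 (-0.96 ± 0.07, adjusted p = 3.04e-06), and RHBDL2, an intramembrane protease able to cut EGF, fell after OXA 1.5-fold in HT29 (-0.59 ± 0.07, adjusted p = 0.000107) and 1.97-fold in HTOXAR3 (-0.98 ± 0.07, adjusted p = 3.15e-06). Of 6 other family genes, ERBB4 and NRG1 were not above background on any array. NRG4, a ligand of ERBB4, rose with Curcumin 2.38-fold in HT29 (1.25 ± 0.16, adjusted p = 0.00174) and 1.8-fold in HTOXAR3 (0.84 ± 0.16, adjusted p = 0.0224). These folds start near the background threshold: the OXA arrays read 4.9 to 5.15 in HT29 and 4.66 to 5.05 in HTOXAR3. Untreated HTOXAR3 replicate 2, at 4.48, was not above background for NRG4. EGF was at least 2.04-fold higher in HTOXAR3 after OXA plus Curcumin than in untreated cells (adjusted p = 0.0209), a bound because none of the 3 untreated arrays was above background. In HT29 EGF did not pass (0.65 ± 0.36, adjusted p = 1), and no difference between the lines is given, since the HTOXAR3 value is a bound.

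The other pathway genes with the largest changes past the test were these. In untreated cells SPRY2 was higher in HTOXAR3 by 0.9 and PHLDA1 by 0.67 (adjusted p = 9.25e-05 and 2.12e-05), and CBLC was lower (-0.84, adjusted p = 7.47e-06). After OXA in HT29 STUB1 fell (-0.68, adjusted p = 2.67e-05), as did CBLB (-0.49, adjusted p = 0.0012). The lines differed in these by 0.4 and 0.34, which did not pass (adjusted p = 0.345 and 1). PIK3R1 fell after OXA in HTOXAR3 (-0.48, adjusted p = 0.0021) and in HT29 (-0.4, adjusted p = 0.0056). With Curcumin added LRIG3 fell in HT29 (-0.39, adjusted p = 0.0377), and PIK3R1 (-0.6, adjusted p = 0.000431) and PIK3R2 (-0.55, adjusted p = 0.00104) fell in HTOXAR3. The differences between the lines in these were 0.1, -0.39 and -0.27 (adjusted p = 1 for each). Under OXA plus Curcumin DUSP5 rose by 2.36 in HT29 and 2.08 in HTOXAR3, and RHBDL2 (-0.91) and LRIG1 (-0.79) fell in HTOXAR3. In HT29 MAPK3 rose by 1.06 and CBLC by 0.95, and STUB1 (-0.72) and AKT1 (-0.69) fell, and in HTOXAR3 FOSL1 rose by 1.03. All of these but LRIG1 also passed in the same direction in the other line.

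**Figure D5:**
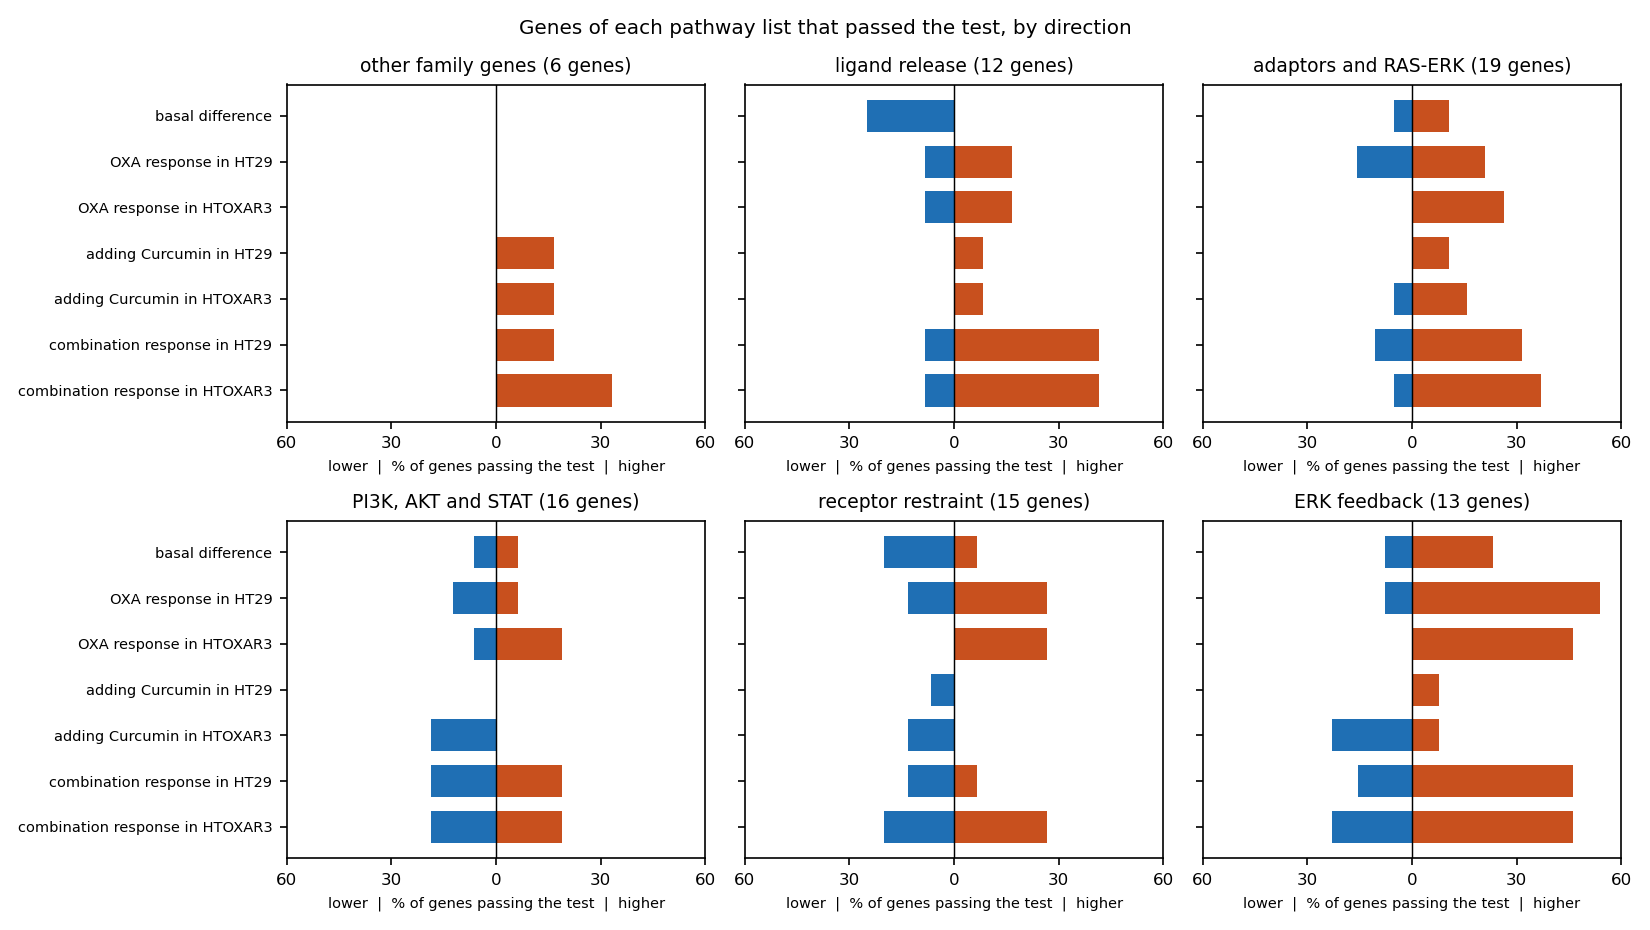
Share of the genes of 6 pathway lists (horizontal axis, percent of the list) that passed the test in each of the 7 comparisons of 2 groups, lower genes to the left and higher genes to the right. ERK feedback has the longest bars after OXA, with 7 of 13 genes higher in HT29 and 6 of 13 in HTOXAR3.

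With a fold change minimum of 2 in place of 1.2, 4 of the 15 member results that passed kept their call: EGFR after OXA in both lines, and EGFR and HBEGF after OXA plus Curcumin in HTOXAR3. Direction held for all 15 under both scalings to the 75th percentile, also relative to the shift those scalings gave to the median of all names. That shift lay between -0.21 and 0.08. Relative to it, ERBB3 under OXA plus Curcumin in HTOXAR3 was -0.18 with normexp and -0.14 with the processed intensity, against -0.39 before. ERBB2 with Curcumin added in HTOXAR3 was -0.24 and -0.48 in the same order, against -0.38 before.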

How the data were processed

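The authors labelled total RNA with Cy3, scanned the arrays and extracted them with Agilent Feature Extraction 10.7.3.1 (per the file headers). The intensity values they deposited are linear scanner readings, the mean over each spot and the median around it, with no scaling from array to array. Their own log2 values, deposited without names, were not used here.

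Normexp background correction and quantile normalization of log2 values follow the paper's methods. The offset of 0, dropping controls after normexp and setting outlier-marked spots to missing were choices made here. Replicate spots were averaged, and for the 8947 names with several probes the probe of highest mean was used. A model with 6 group terms was fitted to all 18 arrays with limma 3.58.1 in R 4.3.3 (package data.table, version 1.17.8), with BY adjustment over all names, at 0.05 and a fold of 1.2. Probe values were adjusted over all probes. Figures used Python 3.11.15, pandas 2.3.3 and matplotlib 3.10.9. The code was checked on simulated data.

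Members and pathway lists were chosen with earlier results of these data known. Members are named on every probe. Lists are given by counts, with at most 3 rises and 3 falls of the pooled lists named per comparison, the largest past the test among genes above background on every array of at least 1 group compared. Beside some of these, the same gene's value in the other line is given. Neighbours in pattern are the 3 names of smallest root mean square difference for the 3 members of widest range. NRDC was matched under NRD1.

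Pairing was taken from the replicate numbers in the labels and the correlation of their residuals: pairs correlated for OXA in HT29 (0.114 to 0.236) and for adding Curcumin in HTOXAR3 (0.102 to 0.186), every pair above 0.1. In both of these comparisons every pair also shared a slide, whereas each other comparison had a pair on different slides. Pairing by replicate and sharing of a slide therefore cannot be told apart here. Alternatives were normexp offsets of 16 and 50, 2 scalings to the 75th percentile, the mean of a gene's probes, each other probe, dim probes left out, Benjamini-Hochberg (BH) adjustment, a fold minimum of 2, slide or replicate as a block, a fit of the groups compared alone, and each array left out.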

Additional observations from a re-analysis of the deposited data

Results flagged for a closer look

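The response of ERBB2 to OXA plus Curcumin differed between HTOXAR3 and HT29 by a test of the difference itself, at -0.75 in log2 intensity (adjusted p = 0.0158 in limma, with 3 arrays per group). All 3 HTOXAR3 arrays with the drugs lay below all 3 untreated ones, whereas those groups overlapped in HT29. The call was lost on leaving out 6 of 12 arrays 1 at a time, under both scalings to the 75th percentile, with the probes averaged, with a fold minimum of 2 and in a fit of the groups compared alone. Over the alternatives on this probe and the mean of probes the adjusted p ran from 0.00143 to 1. The second ERBB2 probe gave 0.38 for the same difference and did not pass (adjusted p = 1). The OXA dose also differed between the lines, and its part in the difference was not tested.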

How the results depend on the processing

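Counted over each pair of a member result and an alternative, a call was lost in 55 cases and gained in 47 with the direction kept. Direction turned in 14 further cases with a call before or after, and some of these also lost or gained the call. Differences without a call on either side also changed sign in places. Over all results the sign held for 84 of 90 with the processed intensity and 86 of 90 with normexp scaled to the 75th percentile, and BTC after OXA in HT29 went from -0.07 to as far as 0.08 with 1 array left out. With 1 array left out, 679 of 702 values kept their side of the threshold. Differences within 1 slide have no test: 94 of 135 lay within the spread between replicates and 41 beyond it, among them EGFR after OXA in HTOXAR3 (1.31 within slide 2) and after OXA plus Curcumin in HT29 (0.71 within slide 3). EGFR after OXA and after OXA plus Curcumin, in both lines, kept direction and call under every tested alternative that held the fold minimum at 1.2 and used its highest probe or the mean of its probes.

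The number of members past the test changed as follows. For adding Curcumin in HT29, 0 passed in limma (5 at an unadjusted p under 0.05), but 1 with offset 16, 2 with offset 50, 1 with the processed intensity, 1 with normexp scaled to the 75th percentile, 1 with the mean of probes, 1 without dim probes, 2 with BH, 1 with slide as a block and 1 with the replicate block. For the line difference in OXA response the count went from 0 in limma (4 at an unadjusted p under 0.05) to 1, EREG, with offset 50, the processed intensity, dim probes left out and BH. For that in the response to OXA plus Curcumin it went from 1 to 2 with offset 50 and BH, and to 0 with the processed intensity, normexp scaled to the 75th percentile, the mean of probes, a fold of 2 and the groups compared alone. For OXA in HT29 it fell from 2 to 1 with the mean of probes, a fold of 2 and the groups compared alone, and rose to 3, with EREG, under offset 50, dim probes left out, BH, slide as a block and the replicate block. For OXA plus Curcumin in HT29 it went from 3 to 5 with the mean of probes, to 4 with both scalings to the 75th percentile and BH, to 0 with a fold of 2 and to 1 with the groups compared alone. The basal count went from 2 to 4 with BH, to 3 with offset 50, the processed intensity, dim probes left out and the replicate block, and to 0 with a fold of 2. OXA in HTOXAR3 went from 1 to 4 with BH. Adding Curcumin in HTOXAR3 went from 1 to 2 with BH, and to 0 with a fold of 2 and the groups compared alone. OXA plus Curcumin in HTOXAR3 went from 5 to 2 with a fold of 2, 3 with the groups compared alone, 4 with the processed intensity and the mean of probes, and 6, with TGFA, under offset 50, dim probes left out, BH and slide as a block. BH is the less strict adjustment and a fit of fewer arrays has fewer degrees of freedom; for the other changes the cause was not tested.

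Leaving out 1 array gave counts from 1 to 2 for OXA in HT29, 0 to 1 for adding Curcumin in HT29, 0 to 0 for adding Curcumin in HTOXAR3, 3 to 5 for OXA plus Curcumin in HTOXAR3 and 0 to 1 for the line difference in that response. The arrays concerned are named with the counts in the report.

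The turns of direction with a call before or after came with other probes or their mean. With the mean of probes, ERBB2 gave 0.26 for adding Curcumin and 0.19 for OXA plus Curcumin in HTOXAR3, and ERBB3 gave 0.45 for adding Curcumin in HTOXAR3 and 0.48 and 0.36 for OXA plus Curcumin in HT29 and HTOXAR3. The second ERBB2 probe gave 0.89 for adding Curcumin, 1.02 for OXA plus Curcumin in HTOXAR3 and 0.38 for the line difference. The second ERBB3 probe gave 0.61 in the basal comparison, 1.01 and 0.97 for adding Curcumin in HT29 and HTOXAR3, and 1.07 and 1 for OXA plus Curcumin. The third ERBB3 probe gave 0.46 for OXA plus Curcumin in HTOXAR3. The cause was not tested.

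The replicate block added calls for EGFR in the basal comparison (0.3) and with Curcumin added in HT29 (-0.34), and for EREG after OXA in HT29 (-0.31), and changed no other member call. Replicate numbers paired no arrays in the other comparisons by the limit used, with correlations from -0.0643 to -0.0108 in the basal one, -0.087 to 0.142 for OXA in HTOXAR3, -0.00153 to 0.0499 for adding Curcumin in HT29, and -0.027 to 0.0285 and -0.164 to 0.175 for OXA plus Curcumin in HT29 and HTOXAR3.

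Each group has 3 arrays, and EPGN lay below the background threshold on all 18, so its differences carry no fold.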
